A study of Mus musculus with 16 samples.

Results

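The transcripts described here are 38 genes of rod and cone photoreceptors, the light-sensing neurons of the retina, measured in sorted immune cells. They were taken by symbol from a table of 45664 gene entries, and all 38 symbols were found. The rule names genes and no measured value, but it was drawn up with earlier results of these data known. Of the genes, 11 belong to rods, 6 to cones, and 21 are used by both cell types or were not assigned to 1 of them. Bulk RNA of 4 sorted populations of C57BL/6 mice, 8 to 10 weeks old, was sequenced with 4 libraries per population. The strain field of the labels names no transgene, and no group is labelled as treated. Retinal microglia, the resident macrophages of the neural retina, were sorted as CD45+CD11b+ cells from retinas taken apart mechanically in the cold, without an enzyme. Brain microglia were sorted by the same antigens, cornea macrophages as CD45+CD11b+CD64+F4/80+ cells after collagenase digestion. The gate for monocytes of the bone marrow was CD45+CD11b+CD115+Ly6C+. Each retinal and each corneal library came from a pool of 10 mice, and the pool size of the brain and marrow libraries is uncertain because their descriptions name retinal microglia.

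Rods serve dim light and cones serve daylight and colour, and in the mouse retina rods far outnumber cones. In both, light activates an opsin, the opsin activates the G protein transducin, and transducin switches on a phosphodiesterase that lowers cyclic GMP and closes a cation channel of the outer segment. Each step has rod and cone versions encoded by separate genes that can be compared pair by pair. Retinal microglia are known to take up debris of these neurons. Photoreceptor RNA in a sorted library may be engulfed or carried over from other cells, and neither was tested here.

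Total counts were 10.71, 17.23, 16.01 and 19.94 M (mega-counts) in retina 1 to 4, numbered in the order of deposition, and 8.68 to 21.76 M over all 16 libraries. Levels are CPM, counts scaled to the effective library size, and levels of different genes are compared as CPM per kilobase of the gene length in the table. The sorted cells carried their own markers: P2ry12, a microglial receptor, stood at 7527 ± 1012 CPM (SD, n = 4) in retina and 13790 ± 519 in brain, and Ly6c2, of classical monocytes, at 2464 ± 141 in marrow. All 4 retinal libraries ran on sequencer lane 2, with cornea 1 to 3 and marrow 1, and all 4 brain libraries on lane 3, so that lane and population cannot be told apart between retina and brain. Retina 1 and 2 share a title number, as do retina 3 and 4, and the titles of retina 2 and 4 also carry the tags R8-10 and R1-6, which are not explained. The labels do not tell if the libraries of such a pair came from separate pools, and fewer than 4 retinal pools may stand behind the 4 libraries.

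Promoters of some members hold the same short words. RefSeq promoters (build GRCm38.p6, 250 bases before to 50 after the start) held 31 of the members. Missing from that table were Gnat1, Pde6a, Pde6g, Pde6c, Rp1, Rcvrn and Guca1b. The letters TAATCC, the core bound by CRX, a homeobox factor of both photoreceptor types, were searched on both strands and lay in 13 of the 31 promoters (41.9%), against 8.14% of 27025 genes. They lay in 4 of 8 rod promoters, 1 of 5 cone promoters and 8 of 18 shared promoters. Of the 17 matches, 15 started within 120 bases upstream of the start, a position not compared with that in other genes. The letters TGCTGAC, a short site of NRL, the factor that sets rod identity, were searched likewise and lay in 3 of 31 promoters (9.68%) against 5.28% of all genes. A match is a run of letters and not a measured binding site. The windows that follow lie wholly outside the gene body in GENCODE and are shown because their genes span rod phototransduction (Sag, Cngb1, Pde6b), the photoreceptor factors (Crx, Rorb) and shared upkeep of the outer segment (Rbp3, Abca4, Aipl1). Capitals mark the match, TAATCC or its reverse complement GGATTA in the first 6 and TGCTGAC in the last 2, written 5′ to 3′ on the strand of the gene.
Sag, chr1:87803576-87803615, plus strand: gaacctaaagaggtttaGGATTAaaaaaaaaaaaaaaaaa
Cngb1, chr8:95306621-95306660, minus strand: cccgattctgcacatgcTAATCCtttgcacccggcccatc
Crx, chr7:15880027-15880066, minus strand: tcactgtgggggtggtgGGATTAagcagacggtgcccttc
Rbp3, chr14:33953917-33953956, plus strand: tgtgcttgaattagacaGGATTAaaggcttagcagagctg
Abca4, chr3:122044385-122044424, plus strand: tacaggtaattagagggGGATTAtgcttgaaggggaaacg
Aipl1, chr11:72037540-72037579, minus strand: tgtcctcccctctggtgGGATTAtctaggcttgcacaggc
Pde6b, chr5:108388348-108388388, plus strand: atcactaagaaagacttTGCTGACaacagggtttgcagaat
Rorb, chr19:19111250-19111290, minus strand: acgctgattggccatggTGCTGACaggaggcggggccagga

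Photoreceptor transcripts were present in every retinal library, at levels that differed 10.1-fold between libraries. The 38 genes together took 0.418%, 0.238%, 0.0773% and 0.839% of the counts of retina 1 to 4, or 44802, 40963, 12377 and 167420 counts. Their summed level was 3235 ± 2613 CPM (SD, n = 4) in retina, 13.4 ± 1.79 in brain, 24.7 ± 2.00 in cornea and 100.4 ± 13.1 in marrow. The lowest retinal library, at 666.7 CPM, lay above the highest library of any other population, at 113.0 CPM in marrow. On lane 2 alone the values were 666.7 to 6739 CPM in retina, 24.6, 26.3 and 26.1 in cornea 1 to 3 and 113.0 in marrow 1. In bulk samples, fewer cells of a type and less RNA per cell cannot be told apart.

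Rod genes made up most of the assigned signal. The 11 rod genes summed to 1690 ± 1310 CPM in retina, against 3.02 ± 0.698 in brain, 3.41 ± 0.936 in cornea and 1.37 ± 0.607 in marrow. The 21 shared genes summed to 1508 ± 1287 CPM in retina, 10.3 ± 1.62 in brain, 21.1 ± 2.72 in cornea and 98.5 ± 13.3 in marrow. The 6 cone genes summed to 36.6 ± 24.7 CPM in retina, 0.0429 ± 0.0508 in brain, 0.217 ± 0.16 in cornea and 0.585 ± 0.212 in marrow. For rod and shared genes no retinal library overlapped any other library. For cone genes retina 3, at 0.97 CPM, lay just above the highest marrow library, at 0.731 CPM, and the other 3 retinal libraries lay far above.

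**Figure D1:**
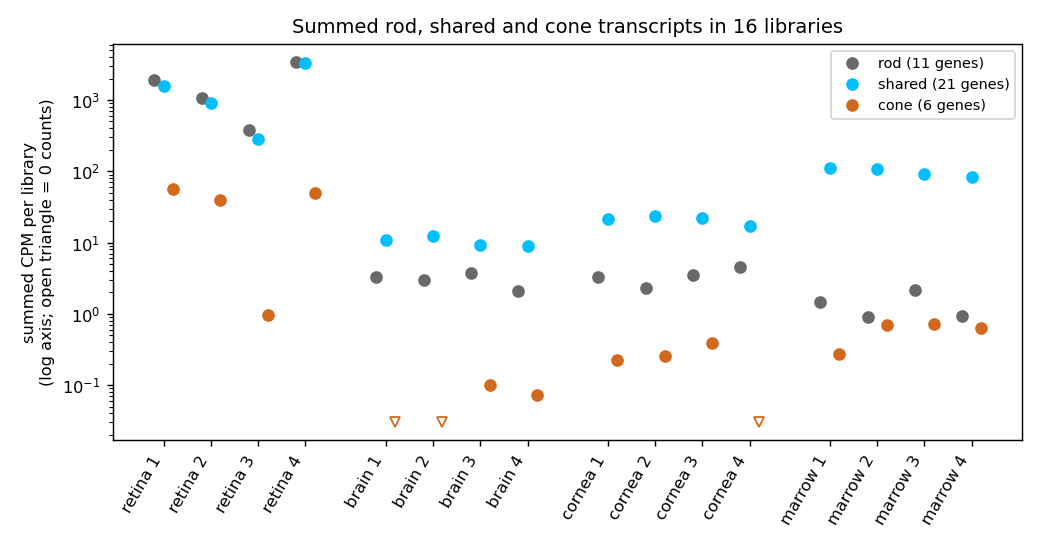
Summed CPM of 11 rod, 21 shared and 6 cone genes in each of the 16 libraries, on a log axis, with an open triangle for a sum of 0 counts. Rod and shared sums of all 4 retinal libraries stand above every other library, and the cone sum of retina 3 (0.97 CPM) sits beside the marrow libraries.

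In the rod transduction cascade, Gnat1, the alpha subunit of rod transducin, stood at 818, 347, 153 and 1104 CPM in retina 1 to 4. It was the highest member per length, at 199.9 ± 143 CPM per kilobase (SD, n = 4). No brain library held a Gnat1 count, so its level in retina was at least 9427-fold higher. Gngt1, the gamma subunit of the same G protein, stood at 94.5, 77.8, 24.6 and 149.7 CPM and had no count in any of the 12 other libraries. Both subunits were highest in retina 4 and lowest in retina 3.

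The rod phosphodiesterase has catalytic subunits encoded by Pde6a and Pde6b and an inhibitory subunit encoded by Pde6g. Pde6b stood at 192, 139, 30.2 and 584 CPM in retina 1 to 4, Pde6a at 44.7, 21.6, 5.01 and 85.3, and Pde6g at 154, 98.1, 44.8 and 276. Every retinal library lay above every other library for each of these genes. Pde6b was 7.74 higher than in brain on the log2 scale (SE 0.85, adjusted p = 1.36e-05, edgeR's quasi-likelihood test, adjusted over all genes by Benjamini-Hochberg). The Pde6b level was 3.88 to 6.15 times that of Pde6a per kilobase over the 4 libraries. Pde6g was 1.73, 1.53, 3.21 and 1.03 times Pde6b per kilobase in retina 1 to 4, so that the ratio of the inhibitory subunit was highest in retina 3.

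Cyclic GMP opens the rod channel, formed by Cnga1 and Cngb1, and Slc24a1 encodes the rod exchanger that removes calcium. Cnga1 stood at 72.0, 71.2, 23.4 and 181 CPM in retina 1 to 4 and had no count outside the retina. Cngb1 stood at 49.1, 18.1, 5.98 and 78.9 CPM, and Slc24a1 at 87.7, 29.7, 6.52 and 127 CPM. All 3 kept the same order of libraries, with retina 4 highest, then retina 1, 2 and 3. Cnga1 and Cngb1 differed from each other by 2.17 to 5.81 times per kilobase, with the ratio lowest in retina 1. Slc24a1 was also found at 1.30 ± 0.322 CPM in brain microglia, and its log2 difference between retina and brain was 5.59 (SE 0.81, adjusted p = 0.000232, edgeR). With sequencing lane as a term it was 1.87 and no longer called (adjusted p = 0.899, edgeR).

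Sag, rod arrestin, which ends the light response, stood at 338, 233, 77.7 and 751 CPM in retina 1 to 4. It was 10.12 higher than in brain on the log2 scale (SE 0.73, adjusted p = 2.35e-07, edgeR), and no library overlapped. Nrl and Nr2e3, the factors that set and hold rod identity, were lower, at 7.95 ± 5.55 and 6.65 ± 5.90 CPM per kilobase against 39.3 ± 32.4 for Sag. Nrl stood at 30.0, 13.0, 3.77 and 32.9 CPM and Nr2e3 at 25.2, 12.2, 3.29 and 49.0 in retina 1 to 4. Neither factor had a single count in the 12 libraries of brain, cornea and marrow. Against brain the fold was at least 302 for Nrl and at least 364 for Nr2e3. Exons of Nr2e3 overlap those of Gm15507 by 61 bases on the same strand.

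Transcripts of the 6 cone members were scarce, and retina 3 nearly lacked them. Opn1sw, the short-wave cone opsin, had 366, 560, 18 and 807 counts in retina 1 to 4, or 28.9, 27.4, 0.97 and 32.5 CPM. It was the only cone gene that passed the filter on low counts, and the ratio of its pooled level to that in brain, which had 1 count, was 1040 (exact 95% counting interval 186 to 41000). Opn1mw, the middle-wave cone opsin, had 80, 23, 0 and 48 counts, or 6.31, 1.12, 0 and 1.93 CPM. Retina 1, which ranked behind retina 4 for every rod gene, was thus the highest for this opsin. Per kilobase, Opn1sw exceeded Opn1mw 2.79-fold in retina 1, 14.9-fold in retina 2 and 10.3-fold in retina 4. Opn1sw exons overlap those of Calu by 397 bases on the opposite strand, and reads of the pair cannot be told apart if the counting ignored strand.

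Among the remaining cone genes, Gnat2, the alpha subunit of cone transducin, had 107, 117, 0 and 240 counts in retina 1 to 4, or 8.44, 5.71, 0 and 9.66 CPM. Arr3, cone arrestin, had 59, 39, 0 and 28 counts, or 4.65, 1.91, 0 and 1.13 CPM. Pde6h and Pde6c, the inhibitory and catalytic subunits of the cone phosphodiesterase, had 54, 72, 0 and 30 and 47, 3, 0 and 77 counts. In CPM, Pde6h stood at 4.26, 3.52, 0 and 1.21 and Pde6c at 3.71, 0.147, 0 and 3.10. Retina 3 was empty for all of these, although it held 7021 rod counts. Against brain, where they had no count, the fold was at least 91 for Gnat2, 30 for Pde6h, 29 for Opn1mw and 24 for Arr3, and Pde6c, with 1 brain count, had a ratio of 75.3 (13.3 to 3000). These 5 genes were not tested, since they did not pass the filter. Exons of Pde6h overlap Arhgdib by 136 bases on the opposite strand.

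**Figure D2:**
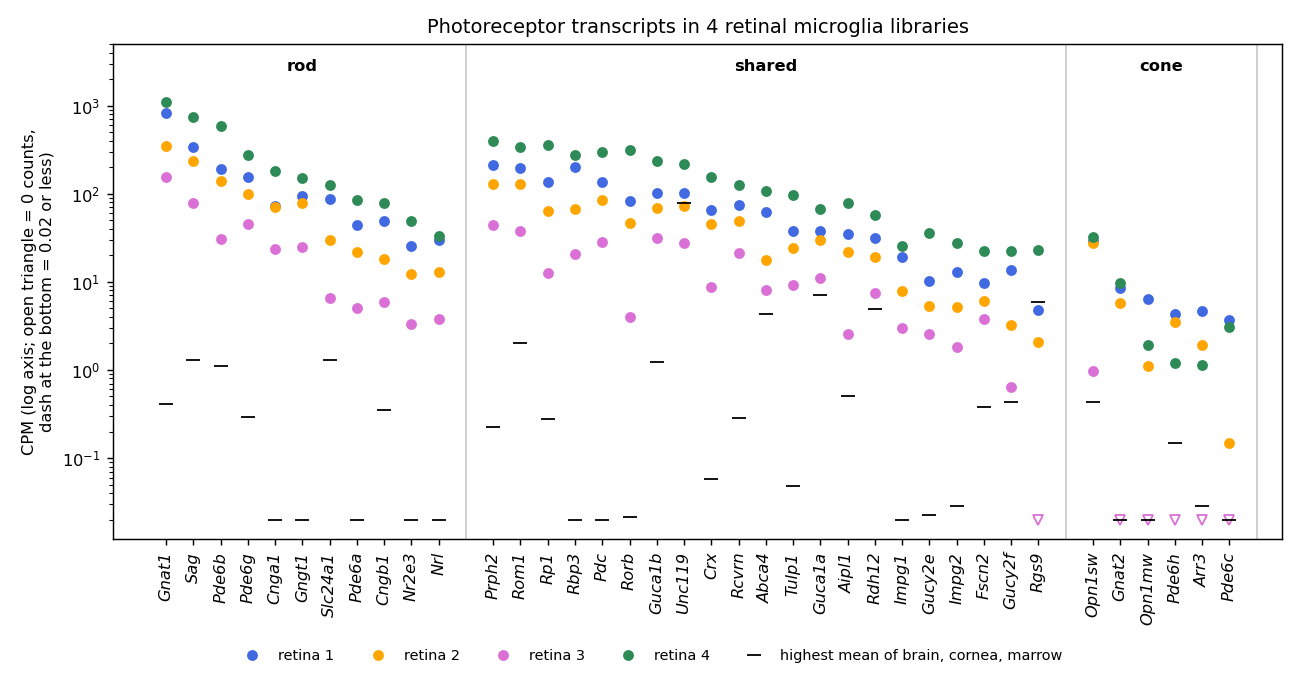
CPM of each of the 38 members in retina 1 to 4 on a log axis, grouped as rod, shared and cone genes, with a dash for the highest mean of brain, cornea and marrow. Retina 3 is lowest for all 38 members and has 0 counts (open triangles) for Rgs9 and 5 cone genes, while Unc119 and Rgs9 are the members whose dash lies above 2 or more of the retinal points.

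The proportion of cone to rod transcripts differed between retinal libraries beyond counting error. Cone counts were 2.87%, 3.61%, 0.256% and 1.43% of rod and cone counts in retina 1 to 4. Exact 95% binomial intervals were 2.66 to 3.08%, 3.37 to 3.86%, 0.152 to 0.404% and 1.35 to 1.51%, and no 2 of them overlapped. Had cone genes kept the proportion to rod counts that they had in the other 3 libraries, retina 3 would have held 148 cone counts, and it held 18. For single genes the expected counts were 93.0 for Opn1sw and 24.9 for Gnat2, against 18 and 0, and 6.76 to 8.37 for Opn1mw, Arr3, Pde6h and Pde6c, against 0. Per kilobase, rod transcripts exceeded cone transcripts 22.9-fold, 18.1-fold, 265.7-fold and 44.3-fold in retina 1 to 4. Some genes outside the cone list were as low in retina 3. The fold of retina 4 over retina 3 was 33.5 for Opn1sw, 79.3 for Rorb and 34.2 for Gucy2f, against a median of 10.4 for the shared genes. Some genes of a second photoreceptor list, given below, had larger folds.

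In 4 matched pairs of rod and cone genes, retina 3 held 0 counts of the cone gene, and the pairs ordered the other libraries differently. Gnat2 was 1.02%, 1.62% and 0.868% of the counts of the transducin pair in retina 1, 2 and 4. In retina 3 it was 0 of 2839 counts, which allows a share of up to 0.106% (3 counts of the total). Retina 3 thus lay below each other library for this pair. Arr3 was 1.36%, 0.81% and 0.15% of the arrestin pair in retina 1, 2 and 4, and 0 in retina 3 with up to 0.208% allowed. The transducin pair placed retina 4 near retina 1, whereas the arrestin pair placed it far below. Pde6h was 2.7%, 3.46% and 0.435% of its pair with Pde6g, and Pde6c was 1.89%, 0.105% and 0.528% of its pair with Pde6b. In retina 3 the limits for these were 0.361% and 0.535%. A lower share in retina 3 than in retina 4 was therefore not detectable at this depth for Arr3 and Pde6c, and for Pde6h the intervals of these libraries overlapped. For Pde6c the same held against retina 2, with its interval of 0.0217 to 0.307%. In a further pairing, with Pde6a, Pde6c was 7.67%, 0.674% and 3.51% in retina 1, 2 and 4. Its limit in retina 3 was 3.23%, above the value of retina 2.

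**Figure D3:**
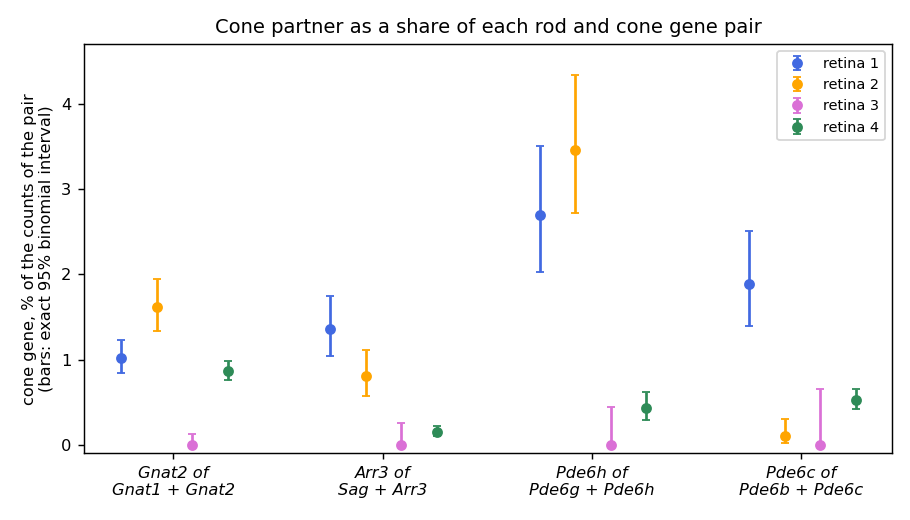
Cone partner as a percentage of the counts of each rod and cone gene pair in retina 1 to 4, with exact 95% binomial intervals that cover counting error only. Retina 3 is at 0 in all 4 pairs, and its interval is clear of every other library only in the transducin pair of Gnat1 and Gnat2.

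Among the shared genes, the disc rim genes Rom1 and Prph2 had the highest mean levels per length. Prph2 and Rom1, partner tetraspanins that shape the rim of outer segment discs, stood at 209, 129, 44.5 and 396 CPM and at 194, 129, 37.9 and 337 CPM in retina 1 to 4. Per kilobase, Rom1 stood at 114 ± 82.5 and Prph2 at 64.9 ± 50.1 CPM. Rom1 exceeded Prph2 by 1.67 to 1.97 times, and Prph2 exceeded the rod gene Sag, paired with it after their values were seen, by 1.57 to 1.84 times. These were the 2 steadiest ratios of the 11 computed between members. Both orders rest on the gene lengths in the table, of 1526 bases for Rom1, 3002 for Prph2 and 8904 for Sag. By retinal counts the order was reversed, with 14182, 15969 and 29166. How well these lengths match the transcripts present was not tested. Rp1, a microtubule protein of the photoreceptor axoneme, stood at 135, 63.6, 12.6 and 356 CPM, Fscn2, an actin bundler, at 9.70, 6.01, 3.77 and 22.3, and Tulp1, needed for transport to the outer segment, at 37.6, 24.2, 9.21 and 96.1. All 5 were higher in each retinal library than in any library without retina. Rp1 was 28.4 times as high in retina 4 as in retina 3, whereas Fscn2 was 5.9 times as high.

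Genes that restore the dark state followed the same library order. Guca1a and Guca1b, calcium sensors that activate guanylate cyclase, stood at 38.1, 30.2, 11.0 and 66.5 CPM and at 102, 69.0, 31.8 and 235 CPM in retina 1 to 4. Gucy2e and Gucy2f, the cyclases, stood at 10.3, 5.32, 2.59 and 35.5 CPM and at 13.6, 3.22, 0.646 and 22.1 CPM. Per kilobase the sensors, at 41.9 ± 26.5 and 44.9 ± 36.2 CPM, stood above the enzymes that they regulate, at 1.46 ± 1.64 and 1.22 ± 1.22. Rcvrn, a calcium sensor that slows phosphorylation of the opsin, stood at 74.5, 49.0, 21.1 and 125 CPM, and Pdc, which binds transducin beta and gamma subunits, at 134, 84.8, 28.3 and 295 CPM. Aipl1, the chaperone of the phosphodiesterase, stood at 34.6, 21.6, 2.59 and 79.1 CPM. Pdc had no count outside the retina, and its share of member counts varied least of the 38 genes, with a coefficient of variation of 6.07% over the 4 libraries.

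Retinoid and matrix genes were present as well. Rbp3, which carries retinoids between photoreceptors and pigment epithelium, stood at 202, 67.8, 20.6 and 276 CPM in retina 1 to 4 and at 0 counts elsewhere. Abca4, a flippase that clears retinal from discs, stood at 62.2, 17.9, 8.08 and 108 CPM, and Rdh12, which reduces retinal, at 31.2, 19.3, 7.49 and 56.6. Impg1 and Impg2, proteoglycans of the matrix between photoreceptors, stood at 19.1, 7.91, 3.02 and 25.8 CPM and at 12.8, 5.18, 1.83 and 27.8 CPM. Each was highest in retina 4 and lowest in retina 3. Against brain, Abca4 was 5.8 higher (SE 0.94, adjusted p = 0.0006) and Rdh12 4.02 higher (SE 0.8, adjusted p = 0.00344) on the log2 scale by edgeR's test. With lane as a term neither was called, Abca4 at 5.28 (adjusted p = 0.135, edgeR) and Rdh12 at 2.22 (adjusted p = 0.441, edgeR).

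The factors Crx and Rorb differed in how far they spread. Crx, which directs photoreceptor gene expression, stood at 65.4, 45.3, 8.78 and 154 CPM in retina 1 to 4. Rorb, a nuclear receptor of photoreceptors and other retinal neurons, stood at 81.9, 46.6, 3.99 and 316 CPM. Rorb thus spread 79.3-fold between retina 4 and retina 3 (exact 95% counting interval 63.1 to 101), the widest of the 32 members with a count in all 4 libraries. Unc119, a carrier of lipid-bearing signalling proteins, stood at 102, 72.5, 27.9 and 217 CPM, and Rgs9, which speeds transducin shut-off, at 4.73, 2.10, 0 and 23.1 CPM. In retina 3 Rgs9 had no count, against 575 in retina 4.

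In the comparison of retinal with brain microglia, 33 of the 38 members passed the filter on low counts, and edgeR's quasi-likelihood test called all 33 of those higher in retina at an adjusted p under 0.05. Over all 15754 genes tested, 6.95% were called higher. Low genes that are absent from brain pass that filter only through the retinal libraries, so the count does not speak for the whole set. In 31 of the 33, all 4 retinal libraries lay above all 4 brain libraries, as did 10.3% of all genes tested. The exceptions were Rgs9, at 0 in retina 3 and in brain, and Gucy2f, whose retina 3 level of 0.646 CPM lay within the brain range. Among the smallest in edgeR's fit were Guca1a, at 2.95 (SE 0.41, adjusted p = 0.000174), and Gucy2f, at 4.5 (SE 1.06, adjusted p = 0.0214). Without retina 4 the Gucy2f value was 3.72 and its adjusted p 0.0617, and without brain 2, 3 or 4 its adjusted p was 0.0591, 0.0644 and 0.0622.

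Of the 38 members, 22 had no count in any of the 4 brain libraries. Lower bounds on their folds ran from 24 for Arr3 to 9427 for Gnat1, with 3154 for Prph2 among the shared genes. With sequencing lane as a term, which only cornea and marrow libraries can inform, 8 of the 33 calls held (Gnat1, Guca1a, Guca1b, Opn1sw, Pde6b, Rom1, Sag and Unc119), and 2.01% of all genes tested were called higher. In that edgeR fit the log2 difference of Sag was 10.49 (adjusted p = 0.000128) and that of Unc119 9.81 (adjusted p = 3.28e-05). Of the 25 calls that ended, 9 were of genes without a count in cornea and marrow, such as Pde6g, at 9.01 before and 9.02 with the term (adjusted p = 1, edgeR). The other 16 had counts there, among them Slc24a1, Abca4 and Rdh12, with the values given above, and Rgs9, at 9.56 (adjusted p = 0.075, edgeR).

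Against cornea macrophages, 32 of the 33 tested members were called higher in retina, where 35.1% of all genes were. All 4 retinal libraries lay above all 4 corneal libraries in 32 members, and in 30.6% of all genes tested. Cornea lacked any count for 14 of the 38. Rgs9 did not pass: its retinal levels of 4.73, 2.10, 0 and 23.1 CPM straddled the corneal mean of 5.87 ± 0.764 CPM. Its log2 difference was 0.36 (SE 0.97, adjusted p = 0.759, edgeR), and without retina 4 it was -1.37 (adjusted p = 0.225).

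Against bone marrow monocytes, 32 of the 33 were called higher in retina, where 32.2% of all genes were. The 4 retinal libraries all lay above the 4 marrow libraries in 30 members, and in 29.6% of all genes tested. Marrow lacked any count for 18 of the 38. Unc119 did not pass, with 104.9 ± 80.9 CPM in retina and 79.4 ± 10.4 in marrow, and the groups overlapped. Its log2 difference was 0.4 (SE 0.4, adjusted p = 0.396, edgeR), and without retina 4 it was -0.24 (adjusted p = 0.56). Without retina 3 it was 0.72 (adjusted p = 0.0475, edgeR), and without the 3 libraries whose titles lack a letter b (retina 1 and 3 and cornea 1) 0.89 (adjusted p = 0.0367, edgeR), which made it a call. Abca4 and Rdh12 were called higher in retina, by 3.52 (SE 0.8, adjusted p = 0.00119) and 2.53 (SE 0.73, adjusted p = 0.00699) in edgeR's fit, and both calls ended with lane as a term. For Rdh12 the groups overlapped, with 7.487 CPM in retina 3 and 7.997 CPM in marrow 1. Rgs9 also overlapped, with 0 counts in retina 3 and 1 in marrow 1. All 3 comparisons use the same retinal libraries.

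Outside the retina most members were near 0, and a few had a steady level of their own. No count was found in any of the 12 other libraries for Gngt1, Cnga1, Nrl, Nr2e3, Opn1mw, Pdc, Rbp3 and Impg1. A mean of 1 CPM or more in another population was reached by 10 members. Unc119 led them, with 4604 counts in the 4 marrow libraries and 4.98 ± 1.56 CPM in cornea, but 0.0938 ± 0.0842 in brain. Guca1a was at 4.71 ± 0.915 CPM in brain, 4.29 ± 1.44 in cornea and 7.01 ± 1.16 in marrow, and 21.7% of its counts came from these 12 libraries. The summed marrow level of 100.4 CPM was thus mostly that of Unc119.

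Of the remaining members with a level outside the retina, Rdh12 stood at 4.92 ± 2.59 CPM in marrow and 1.75 ± 0.370 in brain, and Abca4 at 4.28 ± 1.48 in marrow. Rgs9 was found in cornea only among these 3 populations, apart from 1 marrow count. Rom1 stood between 1.57 and 2.03 CPM in all 3, Pde6b at 1.12 ± 0.589 in brain and 1.11 ± 0.845 in cornea, Sag at 1.31 ± 0.436 in cornea and Guca1b at 1.24 ± 0.594 in cornea. Counts outside the retina were found on both lanes, over which the populations are spread unevenly. The 27 members with at most 30 counts outside the retina had 1.08 counts per M in the 4 other libraries of lane 2, where the retinal libraries ran, and 1.23 per M in the 8 libraries of lane 3. For Gnat1, lane 2 held 47731 counts in the retinal libraries and 0 in the other 4, and lane 3 held 26, of which 25 were in cornea 4. Within cornea, 16, 14 and 19 members had a count in cornea 1 to 3, on lane 2, and 9 in cornea 4, on lane 3. The part of lane in these counts was not tested.

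Rod and shared genes moved together across the retinal libraries. In 34 of the 38 members the order from high to low was retina 4, 1, 2, 3, among them all 11 rod and all 21 shared genes. Among 15038 tested genes with at least 10 counts, 7.61% had that order. The 4 members with another order were the cone genes Opn1mw, Arr3, Pde6h and Pde6c, each highest in retina 1. The median fold of retina 4 over retina 3 was 9.67 for the rod genes and 10.4 for the shared genes, against 1.0 over all genes and 0.871 over 6 microglial genes. Because retina 3 and 4 share a title number and a stated pool size, this spread lies within a pair of like-labelled libraries. No member had both libraries whose titles carry a letter b (retina 2 and 4) above both others. Other retinal lists, described below, shared part of the pattern. Their median fold of retina 4 over retina 3 was 12.6 for other photoreceptor genes, 4.86 for general neuron genes and 4.73 for bipolar cell genes. It was 2.56 for amacrine and ganglion cell genes, 1.91 for Müller glia genes and 0.688 for pigment epithelium genes. The order 4, 1, 2, 3 was kept by 18 of 25 other photoreceptor genes.

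The makeup of the signal was steadier than its size. Per kilobase, rod genes were 46.1%, 41.7%, 45.1% and 42.9% of the summed level in retina 1 to 4, shared genes 51.9 to 56.1% and cone genes 2.01%, 2.3%, 0.17% and 0.97%. Single genes kept their shares of member counts with a median coefficient of variation of 23.5% for rod and 23.8% for shared genes, against 105% for cone genes. Gnat1 took 23.1%, 17.4%, 22.9% and 16.4% of the member counts. Across the 32 members with counts in every library, Spearman correlations of levels between retinal libraries lay between 0.86 and 0.959. These values describe likeness across genes, which are no replicates of each other.

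The fold between some libraries varied with gene length. Across the 32 members the log2 difference from retina 3 to retina 4 had a Spearman correlation of 0.6 with gene length, and that from retina 2 to retina 4 one of 0.74. Over 12948 other tested genes these values were 0.44 and 0.17. The other 4 pairs of libraries gave -0.47 from retina 1 to 2 (other genes -0.15), -0.46 from 1 to 3 (-0.44), 0.27 from 1 to 4 (0.013) and -0.25 from 2 to 3 (-0.38). Members thus followed length more closely than other genes in some pairs of libraries and no more closely in others. The 16 shorter members, of 871 to 3369 bases, had a median fold of 8.26 between retina 4 and retina 3, and the 16 longer ones, of 3510 to 12022 bases, one of 13.6. Other genes of the same lengths had medians of 0.841 and 1.19. Rcvrn and Guca1a, among the shortest, had folds of 5.92 and 6.06, and Rorb and Rp1, among the longest, 79.3 and 28.4, while Abca4, the longest member, had 13.4. RNA quality was not measured here, and its part in the length pattern was not tested.

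**Figure D4:**
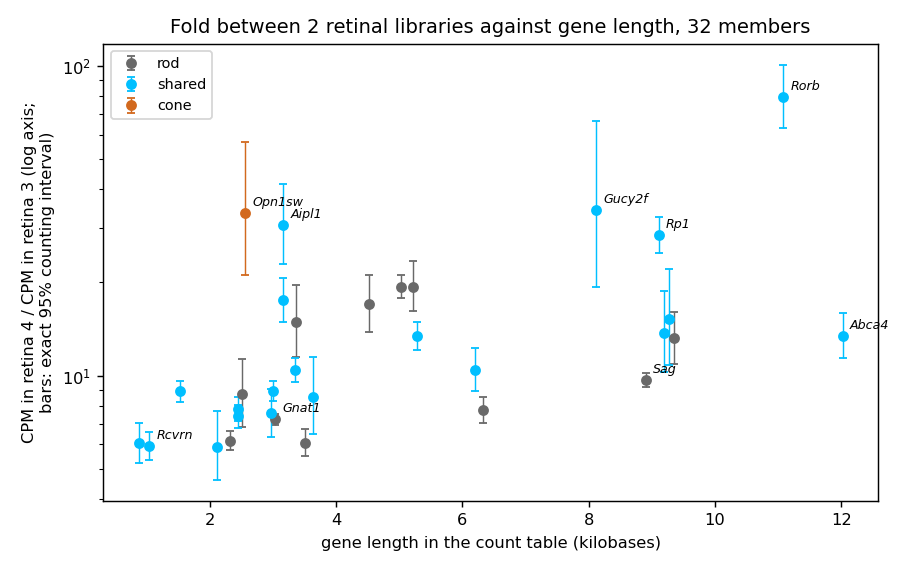
CPM in retina 4 divided by CPM in retina 3 (log axis) against gene length in kilobases for the 32 members with counts in all 4 retinal libraries, with exact 95% counting intervals. The fold runs from 5.9 to 79.3, with Rorb at the top among the long genes and Opn1sw, a cone gene, high among the short ones.

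Other genes known from photoreceptors were also found in the retinal libraries. In a second list of photoreceptor genes, 28 of 29 symbols were in the table, 21 were tested, and edgeR's test called 19 higher and 0 lower in retina than in brain, where 6.95% of all genes tested were called higher. The highest of them per length were Gnb1, a widely used transducin beta subunit, at 479.7 ± 183 CPM in retina and 233 ± 21.3 in brain, and Gngt2, the cone transducin gamma subunit. Gnb1 stood above its retinal mean in cornea, at 932 ± 66.8 CPM, and below it in marrow, at 309 ± 24.4 CPM. Gngt2 stood at 84.5, 79.1, 112.3 and 65.4 CPM in retina 1 to 4 and at 66.0 ± 10.6 in brain, 25.1 ± 1.02 in cornea and 84.3 ± 16.9 in marrow. This cone gene was thus found in all 4 populations, and its highest retinal value was in retina 3, where 5 of the cone members had 0 counts. Its log2 difference between retina and brain was 0.37 (SE 0.18, adjusted p = 0.211, edgeR). In the same list Gnb5, Prom1, Mak, Rpgrip1, Rxrg and Cacna1f also reached 1 CPM in a population without retina, at most 5.49 CPM, for Gnb5 in brain. Rxrg, like Gngt2, was highest in retina 3, at 2.68, 3.27, 5.39 and 2.98 CPM in retina 1 to 4. Of the list, 25 genes had at least 10 counts in a retinal library, and 21 of them were lowest in retina 3. Among tested genes with such counts, 5208 of 15038 were lowest there. Rgs9bp had 516, 287, 6 and 2596 counts in retina 1 to 4, and Mak had 239, 233, 3 and 1057. Their folds of retina 4 over retina 3 were 323 and 263, above the 33.5 of the cone opsin Opn1sw. Folds of Rp1l1, Neurod1 and Kcnv2 were 71.5, 61.7 and 55.3, and the median of the list was 12.6. A strong drop in retina 3 was thus not limited to the cone members.

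Bipolar cells, the next neurons in the pathway, left little trace. Grm6, their glutamate receptor, had no count in any library, and 0 of the 2 genes of this list tested were called between retina and brain, where 6.95% of all genes tested were higher, as for the lists that follow. The list was led by Prkca at 27.1 ± 10.6 CPM in retina and 51.8 ± 11.8 in brain, and by Pcp2 at 0.433 ± 0.385 CPM in retina, and Trpm1 reached 3.61 ± 2.67 CPM in cornea. Of 8 Müller glia genes 2 were called higher and 1 lower. Higher were Rlbp1, a retinoid carrier, at 16.7 ± 9.57 CPM in retina and 0.248 ± 0.496 in brain, and Dkk3, at 10.4 ± 10.0 CPM in retina and 0 in brain, at least 166-fold. Slc1a3, a glutamate transporter, was lower, at 86.5 ± 8.47 and 262 ± 11.0 CPM, and Glul, glutamine synthetase, stood at 105.8 ± 12.0 and 138 ± 31.3. Of 5 tested amacrine and ganglion cell genes 1 was called higher, Nefl, a neurofilament, at 12.6 ± 10.7 CPM in retina and 0.127 ± 0.193 in brain, beside Rbpms at 25.7 ± 3.87 and 17.2 ± 3.76. Of 2 tested pigment epithelium genes 1 was called higher, with Best1 at 7.83 ± 2.63 and 2.75 ± 0.687 CPM and Rdh5 at 3.54 ± 1.68 and 3.08 ± 0.923, and Rpe65 and Lrat, which define that epithelium, had no count in any library. Outside the retina, Dkk3, Kcnj10, Slc14a1 and Sox9 of the Müller glia list and Tfap2b of the amacrine and ganglion cell list reached 2.25 to 10.6 CPM in cornea, and Ttr of the pigment epithelium list 19.2 ± 22.1 CPM in brain. Best1, at 14.9 ± 3.42 CPM, and Rdh5, at 4.49 ± 1.5, stood above their retinal means in cornea, as did Rbpms in marrow, at 38.9 ± 5.66 CPM.

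Of 7 general neuron genes, 3 (Slc17a7, Snap25 and Syt1) had the library order of the rod genes, against 7.61% of all genes tested. Of 4 tested, the same 3 were called higher in retina than in brain, against 6.95% of all genes. The highest per length were Slc17a7, a glutamate transporter of synaptic vesicles, and Snap25, a synaptic fusion protein. Slc17a7 stood at 80.9, 28.8, 5.76 and 105.0 CPM in retina 1 to 4, and Snap25 at 55.5, 32.1, 18.5 and 89.7. Both were highest in retina 4 and lowest in retina 3, with folds of 18.2 and 4.86 between retina 4 and retina 3. Their part in the photoreceptor result, and its part in theirs, was not tested.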

How the data were processed

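The authors deposited 1 table of raw read counts per gene, whole numbers without normalization, with a length in bases per gene (unit other), per the file headers. The submitters' processing notes name CASAVA 1.8.2, Subread, featureCounts, limma and build GRCm38.p4, without their order. They give neither annotation release nor strand setting, nor how multi-mapping reads were handled. The labels' extraction text describes brainstem of another mouse line, which leaves kit and strand uncertain here. Descriptions of the brain and marrow libraries name retinal microglia, and they were grouped by title, source and population. Lanes are those in the column headers.

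A filter on low counts (filterByExpr, groups by population, minimum count 10) left 15754 genes. All 16 libraries were fitted in edgeR 4.0.16 (R 4.3.3) with TMM factors and population as the only term, and tested by quasi-likelihood. Adjusted p-values (Benjamini-Hochberg) cover all 15754 genes. A call is an adjusted p under 0.05. The test was checked on simulated counts with the same spread for all genes, so the check does not cover genes as variable as the members. DESeq2 1.42.0 was an alternative. P-values measure the spread between these libraries, which may be partly technical. Where a group had no count, folds are lower bounds against 3 counts over the group. With 1 to 3 counts, a pooled ratio with its exact 95% interval is given. These intervals and floors reflect counting error alone, as no molecular identifiers are named. Overlaps used GENCODE vM21 (GRCm38), and promoters came from RefSeq.

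Members, lists and tests were chosen with earlier results of these data known, and ratios between partner members were added after their values were seen. Values per library are given for every cone member, every member with a mean of at least 10 CPM, and every other member not called against brain. Of each other list, the 2 members highest per kilobase in retina were named, and those with 1 CPM or more elsewhere. Total counts ranged from 8.68 to 21.76 M. Entries whose symbols had turned into dates (27, at most 0.223% of counts) were kept out of the named genes.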

Additional observations from a re-analysis of the deposited data

Results flagged for a closer look

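In 83 groups of 4 libraries, the highest or lowest value was compared with the others by Dixon's criterion at the 95% level, which chance passes in about 1 of 20 groups, and 5 passed. Where 3 of 4 libraries are at 0, any count in the fourth passes, so that rate does not hold for Gnat1 and Abca4 in cornea. Opn1sw stood at 0.97 CPM in retina 3 (18 counts), far below the 27.4 to 32.5 CPM of the other 3 retinal libraries. The ratio of rod to cone transcripts per kilobase was 265.7 in retina 3, against 18.14 to 44.28 in the others, and it shares the Opn1sw counts with the value before. Gnat1, rod transducin, stood at 1.66 CPM in cornea 4 (25 counts) and at 0 in the other 3 corneal libraries. Cornea 4 is the only corneal library on lane 3, where no retinal library ran. Abca4 stood at 1.62 CPM in cornea 3 (21 counts) and at 0 in the other 3. In marrow 3 Abca4 stood at 6.48 CPM (71 counts), against 3.34 to 3.8 CPM in the other marrow libraries.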

How the results depend on the processing

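Of 33 members tested, 33 were called higher in retina against brain, 32 against cornea and 32 against marrow. In the next 5 settings the counts stayed within 1.5 times these values. DESeq2 called 35, 35 and 36 of 38 (all genes: 1485 of 18217, 5827 of 20419 and 5842 of 19865). Without a filter it was 38, 37 and 37 of 38 (1173, 5876 and 5546 of 28925). With only the 8 libraries compared it was 32 of 32, 32 of 33 and 31 of 32 (958 of 13754, 4905 of 15087 and 4820 of 14350). Total counts only gave 33, 32 and 32 of 33 (1353, 8489 and 5550 of 15754). Without the 3 libraries lacking the letter b it was 37, 36 and 37 of 37 (946, 5243 and 4860 of 16931). Total counts in place of TMM moved the median log2 difference of all genes from 0.12 to 0.92 against cornea and from 0.05 to 0.17 against brain. Lane as a term left 8 calls against brain, 32 against cornea and 30 against marrow (all genes: 2.01%, 34.4% and 23.4% higher), and the cause was not tested. Leaving out 1 library gave 32 to 37, 32 to 36 and 32 to 37 members, of 33 or 37 tested. Of all genes, 805 to 1168, 5293 to 5619 and 4697 to 5181 were then called higher, with 16174 to 16472 tested. The log2 difference of Rgs9 between retina and cornea ran from -1.37, without retina 4, to 0.78, and that of Unc119 between retina and marrow from -0.24, without retina 4, to 0.72. The cone share of the summed level per kilobase, 1.36%, was 3.49% from medians in place of sums, 1.11% from counts without length and 0.62% without Gnat1 and Opn1sw, and 1.05 to 1.76% with 1 retinal library left out. The median coefficient of variation of member shares, 24.7%, was 22.9 to 28.7% with 1 library left out. No paired analysis was possible because replicate numbers follow only the order of deposition, and the tags that some brain and marrow titles share (4-6, 7-9) occur in no retinal title. Of the 6 cone genes, 5 had at most 240 counts in any library, which limits the precision of their shares.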
